A study of Mus musculus with 12 samples.

Results

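The 9 genes described here encode secreted apolipoproteins and the transfer protein that loads apolipoprotein B with lipid: Apob, Mttp, Apoa1, Apoa4, Apoa2, Apoc2, Apoc3, Apoe and Apoh. They were taken by symbol from the 18193 genes of the array table, by a rule that uses no measured value, although the set was proposed with earlier results of these data known. Of the 16 probe sets annotated to them, each gene is represented by its brightest on average across the 12 arrays. All 9 were among the 15781 genes that passed the filter on low values.

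Total RNA came from bipotential mouse embryonic liver (BMEL) lines 9A1 and 14B3, isolated independently from liver of dpc14 embryos with CBA/J and C57Bl/6J parents. BMEL cells are immortal epithelial cells that can be steered towards hepatocytes or bile duct cells. Each line was sampled in basal culture, as aggregates after 1 day and as aggregates after 5 days, with 2 biological replicates of each combination, on Affymetrix mouse whole-genome arrays. No allele, transgene or agent distinguishes the groups in the labels: all carry the same cross background, and aggregate culture is the only stated treatment. An immortal line is a limited model of liver, and each culture is represented by these 2 lines alone.

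Lipoproteins carry triglyceride and cholesterol in blood, and the liver and the small intestine are the organs that make them. Apolipoprotein B (Apob) forms the backbone of very low density lipoproteins and chylomicrons, and the microsomal triglyceride transfer protein (Mttp) adds lipid to it in the endoplasmic reticulum. Smaller apolipoproteins then exchange between particles, shape high density lipoproteins, control lipoprotein lipase or bind receptors. Fetal liver and yolk sac endoderm also express many of these genes.

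Levels are given as deposited, on a log2 scale, so that 1 unit is a doubling of signal; levels of different probe sets are not comparable with each other. Differences carry the standard error of a limma model over all 12 arrays, with p-values adjusted by Benjamini-Hochberg over the 15781 genes; "rose" or "fell" means adjusted p below 0.05. The array medians lay between 6.09 and 6.24. On 1 day 9A1 replicate 2 the median was the highest and the SD over probe sets the smallest, 2.13 beside 2.25 to 2.33 elsewhere. The highest values of the arrays lay between 14.49 and 14.69. Members above about 14 are therefore close to the top of the scale, which can understate their change. The labels name no separate flasks or days for the replicates, so p-values measure only the spread between these arrays, which may be technical. In RNA from whole cultures, fewer expressing cells and less RNA per cell cannot be told apart.

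On the array of basal 9A1 replicate 1 all 9 members lay above the other 3 basal arrays. For 5 of them (Mttp, Apoa1, Apoa4, Apoc2 and Apoc3) the gap exceeded 1 log2 unit, which was so for 5.61% of genes tested. For 5 members (Apoa2, Apoa4, Apoc2, Apoc3 and Apoe) that array reached or passed the lowest 5 day array. The first and last of these counts have no share of all genes beside them, so they describe this array only. Results for the members are given with this array and without it, as are those of other genes that it moved most. Without it, 9A1 basal culture rests on a single array, which the model assumes to vary like the other groups. The labelled cell type was checked against liver markers. Alpha-fetoprotein (Afp), the fetal plasma protein, lay between 8.97 and 12.48 on the basal arrays, and the bile duct keratin Krt19 between 13.63 and 13.99. Albumin (Alb) lay between 5.57 and 6.86 on 3 basal arrays, low for an adult hepatocyte marker, and at 13.13 on basal 9A1 replicate 1.

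Apolipoprotein and transfer protein transcripts were mostly low in basal culture and high in 5 day aggregates. After 5 days 8 of the 9 members had risen over basal culture, where 16.9% of all genes tested rose. Without basal 9A1 replicate 1 the count was again 8, against 19.6% of genes. The median change of the 9 members was 4.40 (6.00 without that array), beside 0.01 over all genes with all 12 arrays. After 1 day, 1 member (Apob) had risen, against 5.25% of genes. Without basal 9A1 replicate 1, 5 had risen at 1 day (Apob, Apoa1, Apoa4, Apoc2 and Apoc3), against 10.3% of genes. The direction at 1 day depended on which basal 9A1 array was kept. Without replicate 2 of basal 9A1, the 1 day differences were -3.16 for Apoa4, -2.36 for Apoc3 and -1.95 for Mttp, against 0.71 for Apob. The remaining members lay between -0.62 and -0.09. The comparisons with basal culture share the same basal arrays, so they are not independent of each other. The values themselves were separate at 5 days. Every 5 day array lay above every 1 day array for 8 members, which was so for 15.1% of genes. Every 5 day array lay above every basal array for 4 members (18.5% of genes), and for 8 without basal 9A1 replicate 1 (25.4%). Every 1 day array lay above every basal array for 0 members (5.37%), and for 4 without it (12.8%).

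**Figure D1:**
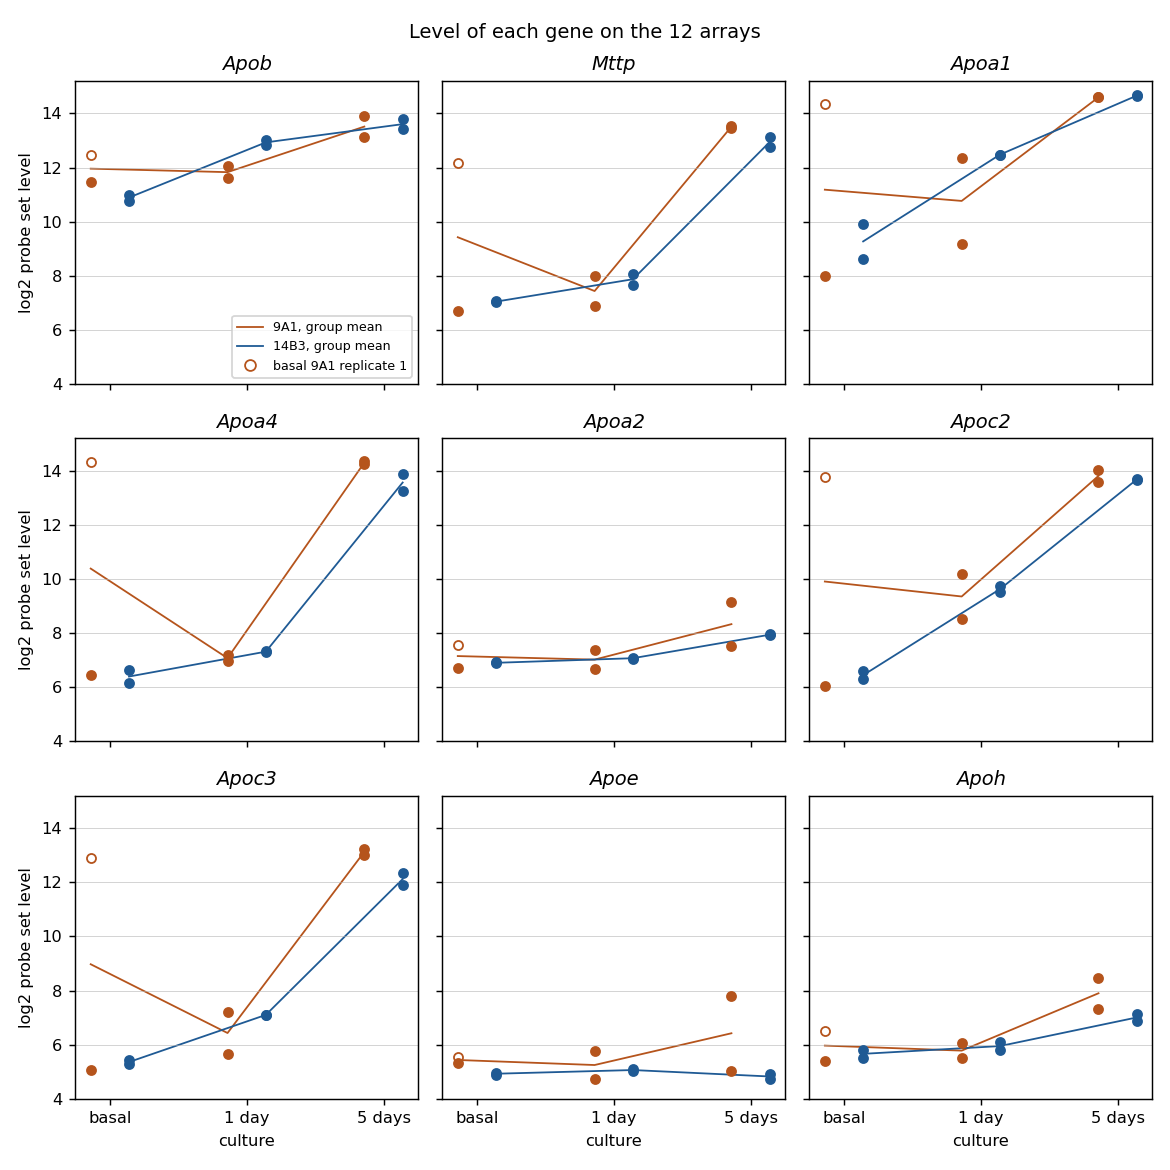
Log2 level of the probe set of each member (y axis) on all 12 arrays, by culture (x axis), with 9A1 in orange, 14B3 in blue, lines through the means of 2 arrays, and basal 9A1 replicate 1 as an open circle. For 8 members every 5 day array lies above every 1 day array; Apoe does not follow this pattern.

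Apob lay far above the array medians already in basal culture, and rose at 1 day in 14B3 and by 5 days in both lines. The probe set 1455593_at read 12.46 and 11.46 in basal 9A1 and 10.78 and 11.00 in basal 14B3. At 1 day it read 12.06 and 11.60 in 9A1 and 12.85 and 13.01 in 14B3, and at 5 days 13.90 and 13.13 in 9A1 and 13.79 and 13.43 in 14B3. All 4 arrays at 5 days stood above all others, while the 1 day 9A1 arrays lay between the basal arrays of that line.

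Apob rose by 0.95 ± 0.24 at 1 day (1.94-fold, adjusted p = 0.0316) and by 2.13 ± 0.24 at 5 days (4.39-fold, adjusted p = 0.000269). In 14B3 the rise was already 2.04 ± 0.34 at 1 day (adjusted p = 0.0106), and 2.71 ± 0.34 at 5 days. In 9A1 the 1 day difference was -0.13 ± 0.34 (adjusted p = 0.880), or 0.37 ± 0.31 without basal 9A1 replicate 1. On the log2 scale 1 day held 17.9% of the 5 day rise in 9A1, without that array, and 75.1% in 14B3. The 1 day call over both lines was lost when any of 8 single arrays was left out (both arrays of basal 14B3, 1 day 14B3 and 5 day 14B3, basal 9A1 replicate 2 or 1 day 9A1 replicate 1), with a lowest value of 0.71. The 1 day call in 14B3 was lost without any of the 4 basal or 1 day arrays of that line. The difference between the lines in the 1 day response was -2.17 ± 0.49, with an adjusted p = 0.940 (unadjusted p = 0.00153), so it did not pass the test over all genes. A second, dimmer Apob probe set, 1457554_at, rose by 2.43 ± 0.21 at 5 days. At 1 day it differed by 0.65 ± 0.21 over both lines and was not called (limma adjusted p = 0.0776). In 14B3 it rose by 1.77 ± 0.30 at 1 day (limma adjusted p = 0.0114), and in 9A1 it differed by -0.48 ± 0.30.

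The promoter of Apob is shown because Apob alone of the members rose at 1 day with all 12 arrays, by its brighter probe set. RefSeq (GRCm38.p6) places the 250 bases before its start at chr12:7977427-7977676 on the plus strand. Capitals mark the letters TATAAA, with their first base at position -60 from the start, and GACCTTT, the reverse complement of AAAGGTC, with its first base at -94.
Apob: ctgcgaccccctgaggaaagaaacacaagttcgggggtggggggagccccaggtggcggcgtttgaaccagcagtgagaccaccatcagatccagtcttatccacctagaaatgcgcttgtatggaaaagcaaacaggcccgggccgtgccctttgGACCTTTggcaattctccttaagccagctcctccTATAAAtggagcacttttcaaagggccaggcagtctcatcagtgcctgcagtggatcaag
The motifs were searched on both strands without overlap between different motifs in this window. TATAAA occurs in 12.4% and AAAGGTC in 3.32% of 32851 promoter windows of the same length, so a match describes letters and not a bound site.

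Mttp, which lipidates Apob, rose after the first day. Its probe set 1419400_at read 12.17 and 6.68 in basal 9A1 and 7.04 and 7.06 in basal 14B3. At 1 day the arrays read 6.89 and 7.99 in 9A1 and 8.08 and 7.67 in 14B3. At 5 days they read 13.48 and 13.55 in 9A1 and 13.14 and 12.76 in 14B3. Every 5 day array was higher than every other array, and basal 9A1 replicate 1 stood far above the rest of basal and 1 day culture.

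Mttp rose by 4.99 ± 0.94 at 5 days (31.9-fold, adjusted p = 0.00305), and by 6.37 ± 0.26 (82.5-fold) without basal 9A1 replicate 1. Between 1 and 5 days it rose by 5.58 ± 0.94 (adjusted p = 0.00370). At 1 day the difference from basal culture was -0.58 ± 0.94, or 0.79 ± 0.26 without that array (adjusted p = 0.0603). On the log2 scale 1 day held 11.0% of the 5 day rise in 9A1, without that array, and 14.0% in 14B3. The other Mttp probe set, 1419399_at, behaved alike on the basal arrays, from 7.01 to 7.13 on 3 of them and 11.62 on basal 9A1 replicate 1.

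Apoa1 is the main protein of high density lipoproteins and the activator of cholesterol esterification in plasma. Its group means were intermediate at 1 day once basal 9A1 replicate 1 was set aside. The probe set 1419233_x_at read 14.37 and 8.00 in basal 9A1 and 8.61 and 9.93 in basal 14B3. The 1 day arrays read 9.19 and 12.34 in 9A1 and 12.48 on both arrays of 14B3. At 5 days all arrays lay between 14.59 and 14.67, at the top of the scale. All 5 day arrays exceeded all others, by little over basal 9A1 replicate 1, and the 1 day arrays of 9A1 were unequal. The lower of these, at 9.19, lay below basal 14B3 replicate 2 at 9.93. Basal and 1 day culture therefore overlapped even without basal 9A1 replicate 1.

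Apoa1 rose by 4.40 ± 1.20 at 5 days (21.1-fold, adjusted p = 0.0182), and by 6.00 ± 0.65 (63.8-fold) without basal 9A1 replicate 1. The 5 day call was lost without basal 14B3 replicate 1, either 5 day 14B3 array or 5 day 9A1 replicate 2. The 1 day difference was 1.40 ± 1.20 (adjusted p = 0.546). Without that array Apoa1 rose by 2.99 ± 0.65 at 1 day (adjusted p = 0.0110). Since its 5 day levels were at the top of the scale, no share of the rise is given for Apoa1. The 4 probe sets of Apoa1 changed by 4.40 to 4.91 at 5 days. The suffix _x_at marks probe sets that may share sequence with other transcripts, and the fourth probe set, 1419232_a_at, which has no such mark, gave 4.91 ± 1.28.

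Apoa4, a protein of chylomicrons and high density lipoproteins made chiefly in intestine and, in rodents, also in liver, had the largest difference between 1 and 5 days of the 9 members. The probe set 1436504_x_at read 14.31 and 6.47 in basal 9A1 and 6.15 and 6.64 in basal 14B3. After 1 day it read 6.97 and 7.18 in 9A1 and 7.31 and 7.33 in 14B3. At 5 days it read 14.35 and 14.26 in 9A1 and 13.90 and 13.24 in 14B3. Basal 9A1 replicate 1 was inside the 5 day range, and the other 3 basal arrays were the lowest of the series.

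Apoa4 rose by 6.74 ± 1.31 from 1 to 5 days (107-fold, adjusted p = 0.00704) and by 5.54 ± 1.31 from basal culture (46.6-fold, adjusted p = 0.00947). The latter, without basal 9A1 replicate 1, was 7.50 ± 0.20 (182-fold). The 1 day difference was -1.20 ± 1.31 with that array and 0.77 ± 0.20 without it (adjusted p = 0.0227), so the array turned its sign. The second probe set, 1417761_at, changed by 5.30 ± 1.26 at 5 days.

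Apoa1 and Apoa4 lie close together on chromosome 9, and their promoters are shown because these neighbouring genes both rose by 5 days. The 250 bases before the start of Apoa1 lie at chr9:46228380-46228629 and those of Apoa4 at chr9:46240594-46240843, both on the plus strand of GRCm38.p6 (RefSeq). No letters are in capitals, since none of the 5 motifs searched on both strands matched either window. The first was TATAAA, the letters of a TATA box. The nuclear receptor cores were AAAGTCC (in 3.58% of windows) and AAAGGTC. The HNF1 letters were GTTAAT, and the HNF3 letters were TGTTTAC (in 3.17%).
Apoa1: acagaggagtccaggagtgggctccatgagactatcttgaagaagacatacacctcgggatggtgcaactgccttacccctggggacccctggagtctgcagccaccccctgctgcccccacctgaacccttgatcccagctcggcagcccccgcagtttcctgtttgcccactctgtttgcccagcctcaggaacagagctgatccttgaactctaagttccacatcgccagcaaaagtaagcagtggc
Apoa4: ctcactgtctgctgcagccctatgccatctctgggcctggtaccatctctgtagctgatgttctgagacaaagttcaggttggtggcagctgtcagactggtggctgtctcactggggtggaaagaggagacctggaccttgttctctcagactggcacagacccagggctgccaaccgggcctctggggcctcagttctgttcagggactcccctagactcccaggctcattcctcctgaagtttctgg
The absence of a match says only that these letters are not in these windows.

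Apoa2, another structural protein of high density lipoproteins, showed a smaller rise. The probe set 1417950_a_at read 7.58 and 6.73 in basal 9A1 and 6.93 and 6.88 in basal 14B3. At 1 day it read 6.66 and 7.39 in 9A1 and 7.10 and 7.05 in 14B3, and at 5 days 9.15 and 7.52 in 9A1 and 7.97 and 7.92 in 14B3. The 5 day arrays were above the 1 day arrays, and 5 day 9A1 replicate 1 was the highest of all. Apoa2 rose by 1.11 ± 0.35 at 5 days (2.16-fold, adjusted p = 0.0327). This call was lost when any of 8 single arrays was left out: both arrays of basal 14B3, 1 day 14B3 and 5 day 14B3, basal 9A1 replicate 2 or 5 day 9A1 replicate 1. Without the last of these the change was 0.70. At 1 day the difference was 0.02 ± 0.35.

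Apoc2, the cofactor that lipoprotein lipase needs to release fatty acids, was intermediate at 1 day once basal 9A1 replicate 1 was set aside. The probe set 1418069_at read 13.78 and 6.04 in basal 9A1 and 6.60 and 6.30 in basal 14B3. The 1 day arrays read 8.52 and 10.19 in 9A1 and 9.73 and 9.52 in 14B3. At 5 days it read 14.05 and 13.58 in 9A1 and 13.67 and 13.70 in 14B3. Without basal 9A1 replicate 1 the 3 cultures did not overlap, and with it that array was among the 5 day arrays.

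Apoc2 rose by 5.57 ± 1.32 at 5 days (47.5-fold, adjusted p = 0.00954), and by 7.51 ± 0.35 (182-fold) without basal 9A1 replicate 1. At 1 day the difference was 1.31 ± 1.32 (adjusted p = 0.618) with that array and 3.25 ± 0.35 (9.51-fold, adjusted p = 0.000331) without it. From 1 to 5 days Apoc2 rose by 4.26 (adjusted p = 0.0482), a call that was lost without any of the 10 arrays other than those of basal 9A1. On the log2 scale 1 day held 42.7% of the 5 day rise in 9A1, without the array, and 44.0% in 14B3. The 250 bases before the start of Apoc2, at chr7:19677942-19678191 on the minus strand of GRCm38.p6 (RefSeq), are shown because Apoc2 had the largest 1 day rise of the members once basal 9A1 replicate 1 was left out. Capitals mark GTTAAT, letters of an HNF1 motif found in 6.43% of windows, with its first base at position -89 from the start.
Apoc2: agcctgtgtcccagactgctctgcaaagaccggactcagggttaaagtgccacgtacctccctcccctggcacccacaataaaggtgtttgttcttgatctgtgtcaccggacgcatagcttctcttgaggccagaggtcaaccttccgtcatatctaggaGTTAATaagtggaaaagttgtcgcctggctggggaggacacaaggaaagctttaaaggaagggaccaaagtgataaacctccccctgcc
Of the 9 members 8 were in the promoter table, with 11 windows, and 5 members had a match to any of the 5 motifs.

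Apoc3, which opposes lipoprotein lipase and slows clearance of triglyceride-rich particles, rose mainly after 1 day. The probe set 1418278_at read 12.90 and 5.05 in basal 9A1 and 5.29 and 5.43 in basal 14B3. After 1 day it read 5.65 and 7.21 in 9A1 and 7.11 and 7.09 in 14B3. At 5 days it read 13.24 and 13.02 in 9A1 and 12.34 and 11.90 in 14B3. Basal 9A1 replicate 1 was within the 5 day range, and 1 day 9A1 replicate 1 was nearer to the other basal arrays than to the other 1 day arrays.

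Apoc3 rose by 5.46 ± 1.33 at 5 days (44.0-fold, adjusted p = 0.0110), and by 7.42 ± 0.33 (171-fold) without basal 9A1 replicate 1. From 1 to 5 days it rose by 5.86 ± 1.33 (adjusted p = 0.0140), a call lost without either 1 day 14B3 array or 5 day 14B3 replicate 1. The 1 day difference of Apoc3 from basal culture was -0.40 ± 1.33 with that array and 1.56 ± 0.33 without it (adjusted p = 0.00996). By 1 day 17.1% of the 5 day log2 rise was reached in 9A1, without the array, and 25.8% in 14B3.

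Apoe, a ligand of lipoprotein receptors that adult liver makes in quantity, was the exception. The probe set 1432466_a_at read 5.56 and 5.31 in basal 9A1 and 4.88 and 4.97 in basal 14B3. At 1 day it read 5.75 and 4.74 in 9A1 and 5.02 and 5.11 in 14B3, and at 5 days 7.81 and 5.04 in 9A1 and 4.91 and 4.74 in 14B3. All arrays but 5 day 9A1 replicate 1 were near the filter's floor of 5, and the cultures overlapped. The 5 day difference was 0.44 ± 0.50 (95% interval -0.69 to 1.57, adjusted p = 0.595). Without 5 day 9A1 replicate 1 it was -0.25 (adjusted p = 0.515), and without 5 day 9A1 replicate 2 it was 1.14 (adjusted p = 0.00964), so the result for Apoe turned on which of these arrays stood for the group.

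Apoh (beta-2-glycoprotein I), a plasma protein that binds phospholipid and rides partly on lipoproteins, rose from a low level. The probe set 1416677_at read 6.52 and 5.41 in basal 9A1 and 5.52 and 5.80 in basal 14B3. The 1 day arrays read 5.50 and 6.06 in 9A1 and 5.81 and 6.08 in 14B3, and the 5 day arrays 8.46 and 7.34 in 9A1 and 7.13 and 6.88 in 14B3. The 5 day arrays all exceeded the others. Apoh rose by 1.64 ± 0.31 at 5 days (3.12-fold, adjusted p = 0.00296), and the 1 day difference was 0.05 ± 0.31. A second probe set, 1447719_at, differed by 0.08 ± 0.20 (adjusted p = 0.837), so the probe sets of this gene disagree.

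**Figure D2:**
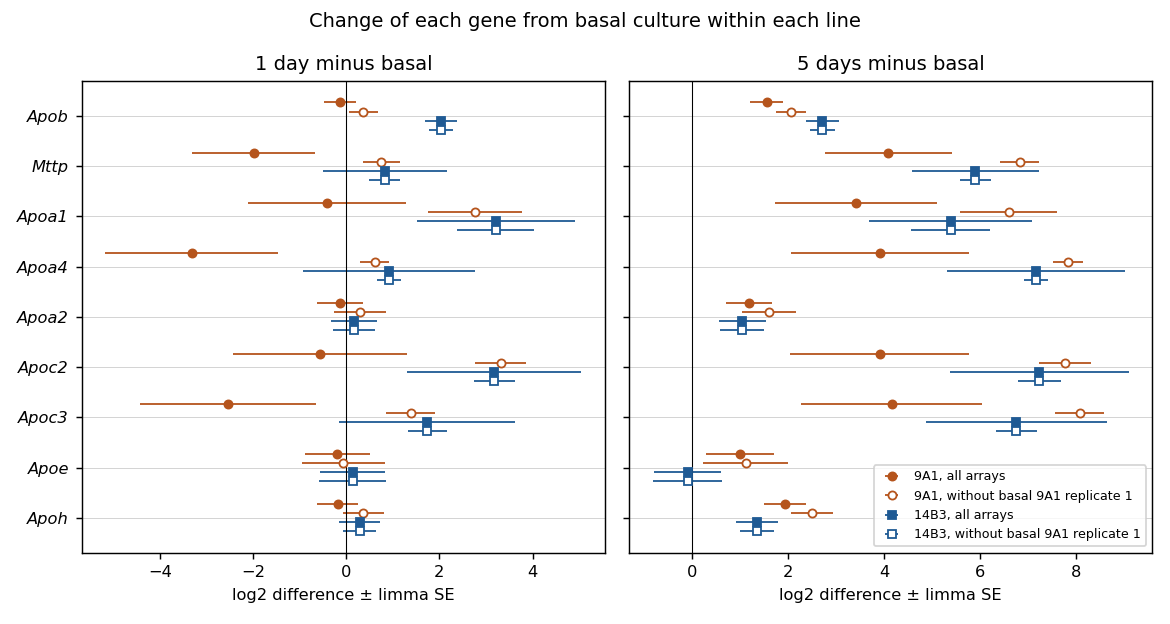
Log2 difference from basal culture (x axis) of each member at 1 day (left) and 5 days (right), for 9A1 (circles) and 14B3 (squares), filled with all 12 arrays and open without basal 9A1 replicate 1; bars are limma standard errors. In 9A1 the open circles lie to the right of the filled ones throughout, and in 14B3 the points keep their place while the bars shorten for all members but Apoe.

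Within the lines taken singly, 7 members rose at 5 days in 14B3 (all but Apoa2 and Apoe), where 12.6% of genes rose. When the arrays of 14B3 were fitted alone, 8 members rose at 5 days. In 9A1 only Apob (1.56 ± 0.34) and Apoh (1.93 ± 0.43) rose, against 6.66% of genes. Without basal 9A1 replicate 1 the 9A1 count was 7, against 13.4%, with Apoc3 at 8.08 ± 0.52, Apoa4 at 7.84 ± 0.30 and Mttp at 6.83 ± 0.40. In 14B3 the count of 7 dropped to 1 when any of the 4 basal or 5 day arrays of that line was left out. In 9A1 the count of 2 became 0 without basal 9A1 replicate 2 or 5 day 9A1 replicate 1, and 4 without 5 day 9A1 replicate 2. At 1 day 1 member rose in 14B3 (Apob), against 3.4% of genes, and 0 members in 9A1, against 0.342%; at unadjusted p under 0.05 in limma the 9A1 count was again 0. The 14B3 count at 1 day was 5 without either basal 9A1 array and 6 when the arrays of 14B3 were fitted alone. In 9A1 without basal replicate 2, the 1 day differences were -7.23 for Apoa4, -4.42 for Apoc2, -3.60 for Apoa1 and -0.63 for Apob. These are examples and not the list of calls in that setting, since Apoa1 and Apob were not called there. From 1 to 5 days 6 members rose (Apob, Mttp, Apoa4, Apoc2, Apoc3 and Apoh), against 11.7% of genes. That count was 8 without basal 9A1 replicate 1, against 14.6%. In single lines the count from 1 to 5 days was 4 in 9A1, against 6.13% of genes, and 0 in 14B3, against 3.77%, where 4 were higher at unadjusted p under 0.05 in limma. These counts were 7 and 4 without basal 9A1 replicate 1, and the arrays of 14B3 alone gave 8. Leaving out basal 9A1 replicate 2 in place of replicate 1 lowered the 5 day changes to 2.81 for Apoa1, 3.58 for Apoa4, 3.63 for Apoc2, 3.50 for Apoc3 and 3.62 for Mttp. All of these were still called, and 7 members rose, with Apoa2 lost.

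The difference between the lines was called for 0 members in each culture and for 0 in either response. Over all genes the calls were 0.019% in basal culture, 0% at 1 day, 0.247% at 5 days, and 0% and 0.038% for the responses at 1 and 5 days. At unadjusted p under 0.05 in limma the count was 1 member in each of these comparisons, namely Apob in basal culture, at 1 day and in both responses, and Apoe at 5 days. The 5 day levels of Apoa4 differed between the lines by 0.74 ± 1.86 (95% interval -3.46 to 4.93) and those of Mttp by 0.57 ± 1.33. Such intervals leave several-fold differences within reach. Leaving out basal 9A1 replicate 2 gave basal differences between the lines of 7.91 for Apoa4, 5.10 for Apoa1 and 1.56 for Apob. Leaving out replicate 1 gave 0.07, -1.27 and 0.57. For Apoa4 the difference in the 1 day response was -8.15 without replicate 2 and -0.31 without replicate 1. In its 5 day response these values were -7.18 and 0.67. The line comparisons in basal culture and in the responses thus rested on which array stood for basal 9A1. The line differences at 1 and 5 days contain no basal array, although the basal arrays enter their estimate of spread. For Apoa4 at 5 days the difference lay between 0.41 and 1.06 with single arrays left out.

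Across the 12 arrays Apoa4, Apoc3 and Mttp varied together most closely. Pearson's r was 0.991 for Apoa4 and Apoc3, 0.989 for Apoc3 and Mttp and 0.988 for Apoa4 and Mttp. Apoa1 followed Apoc2 (r = 0.956), Apoa2 followed Apoh (0.949), and Apoe had r between 0.18 and 0.63 with the other members. These values describe 12 arrays that share 3 cultures and one array with raised values, and carry no test. Among genes that are no member, the profile most like the mean of the 9 was that of Cyp2d26 (r = 0.987), a cytochrome P450, followed by Slc7a9 (0.985), Sult1b1 (0.985) and Gsta2 (0.983). Then came 2010003K11Rik, Ms4a10, Rdh9, Liph, Slc3a1 and Homer2, down to r = 0.979.

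For single members the nearest genes differed. Apoa1 was closest to Il13ra1, Cideb and Pcx, Apoa4 to Trim15, Clca4b and Tmem45b, and Mttp to Tmc5, Adh4 and Lrrc66. Apoc2 was closest to Alpi, Cyp2d26 and Slc7a9, Apoc3 to Nlrp6, 2010003K11Rik and Homer2, and Apob to Cpeb4, Rtn3 and Lrba. Apoh was closest to Gstk1, G6pc and Acss1, and Apoa2 to Acss1, Dll1 and F13b. Apoe was closest to Fabp7 (r = 0.919), Cldn4 and Fgd3, of which Fabp7 also stood highest on 5 day 9A1 replicate 1, at 9.38 against 4.12 to 5.33 on the other 5 day arrays.

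On chromosome 9 the annotation orders Apoa1, Apoc3, Apoa4 and Apoa5 next to each other between Sik3 and Zpr1. The 3 members of this cluster rose, while Apoa5, which enhances triglyceride clearance, lay between 6.64 and 7.13 on all arrays and differed by 0.27 ± 0.15 at 5 days (adjusted p = 0.222). Zpr1 fell by 1.15 ± 0.18 and Sik3 differed by 0.07 ± 0.14.

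On chromosome 7 the order is Apoc2, Apoc4, Apoc1 and Apoe. Apoc4 rose by 1.81 ± 0.20 at 5 days (3.52-fold, adjusted p = 0.000251). Apoc1, which restrains receptor uptake, rose by 2.13 ± 0.68 (adjusted p = 0.0362), a rise that was larger without basal 9A1 replicate 1 (adjusted p = 0.000363), with 5 day levels of 11.96 and 10.16 in 9A1 and 7.63 and 6.80 in 14B3. Neighbouring genes of this cluster thus ranged at 5 days from 5.57 for Apoc2 to 0.44 for Apoe. The list of flanking genes was a choice and left out some neighbours on the array. Among these were Adh7, Adh1, Adh6a and Adh6b near Mttp, Klhl29 next to Apob and Cep112 next to Apoh. Over all genes 16.9% rose and 18.5% fell at 5 days. Of 25 tested genes chosen from those flanking the members, 9 rose and 5 fell, with a median of 0.22. The counts were the same without basal 9A1 replicate 1. The 3 largest rises were those of Apoc1, Nr1i3 (2.03 ± 0.29) and Apoc4, and Trmt10a next to Mttp fell by 1.46 ± 0.30.

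**Figure D3:**
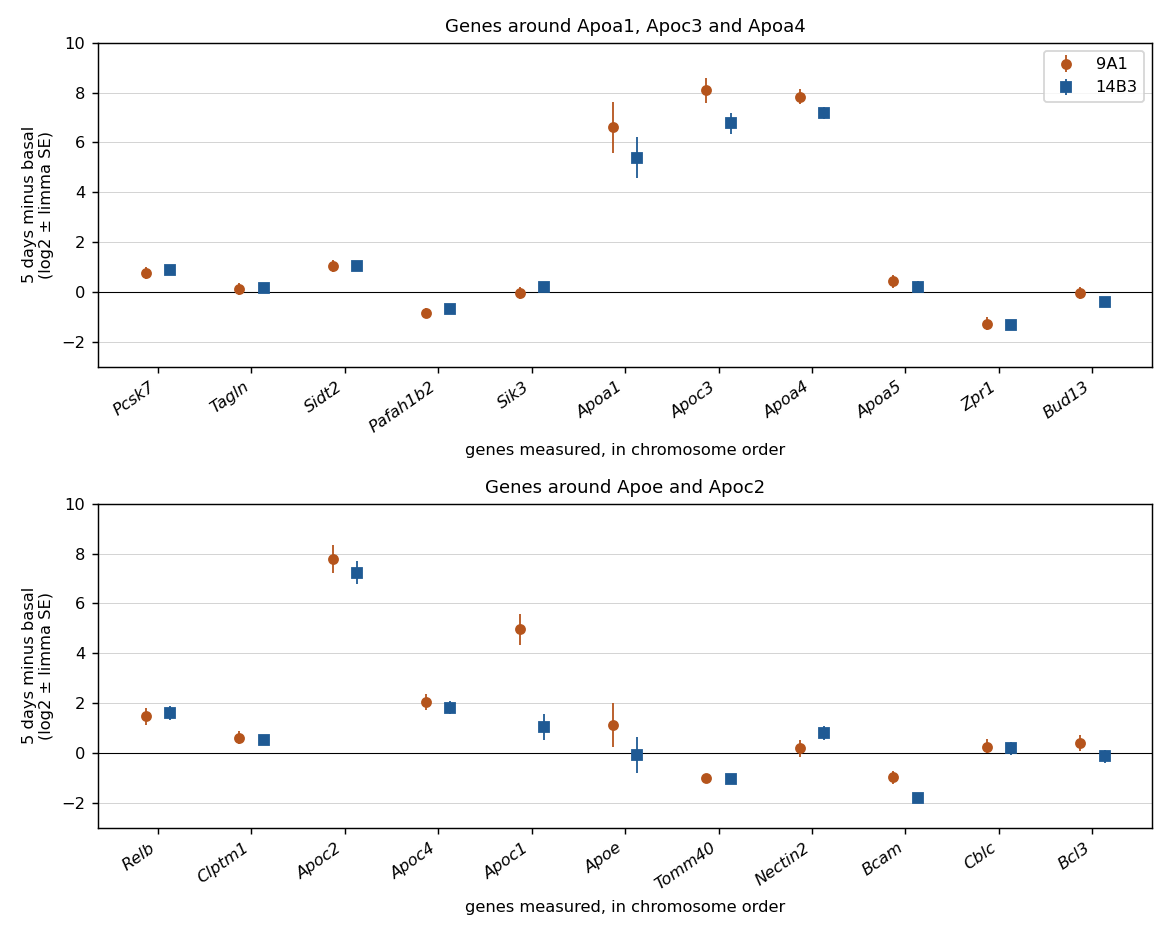
Log2 difference between 5 days and basal culture (y axis, with limma standard errors) of measured genes in chromosome order (x axis, not to scale) around Apoa1, Apoc3 and Apoa4 (top) and around Apoc2 and Apoe (bottom), in 9A1 (circles) and 14B3 (squares), without basal 9A1 replicate 1. Apoa1, Apoc3, Apoa4 and Apoc2 stand above 5 in both lines, while Apoa5, Sik3 and Apoe in 14B3 stay within 1 of 0.

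Genes that load, fold or carry lipoproteins through the secretory route rose with the members. Of 24 tested, 19 rose and 2 fell at 5 days, with a median of 1.30, where 16.9% of all genes rose and 18.5% fell and the median was 0.01. The largest rises were in Tm6sf2 (5.16 ± 0.98), needed for full lipidation of very low density lipoproteins, Pla2g12b (3.89 ± 0.67), which promotes particle expansion, and Cideb (3.29 ± 0.68), a lipid droplet protein that aids lipidation. Sar1a and Gpat4 fell by 0.54 ± 0.14 and 0.50 ± 0.15, while Sar1b, whose loss in humans causes chylomicron retention, rose by 1.33 ± 0.16. At 1 day 3 rose and 2 fell, where 8.8% of all genes fell, or 13 and 3 without basal 9A1 replicate 1, where 12.4% fell. At 5 days the counts without that array were again 19 and 2, with a median of 1.48, where 20.8% fell. Without it the rises were 6.48 for Tm6sf2, 4.87 for Pla2g12b and 4.26 for Cideb.

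**Figure D4:**
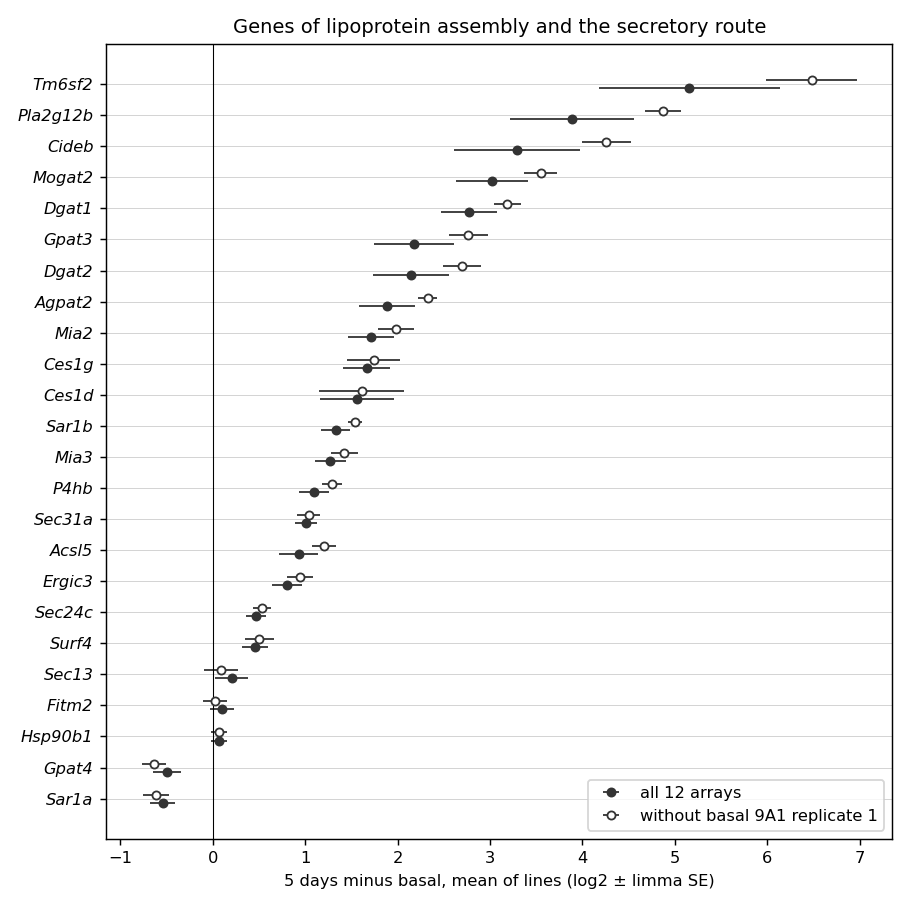
Log2 difference between 5 days and basal culture, mean of both lines (x axis, with limma standard errors), of the 24 tested genes of lipoprotein assembly and secretion (y axis), with all 12 arrays (filled) and without basal 9A1 replicate 1 (open). Tm6sf2 heads the list at 5.16 and Sar1a ends it at -0.54.

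The other groups of the pathway are to be read beside the same shares of all genes, 16.9% higher and 18.5% lower at 5 days. Of 10 further secreted apolipoproteins and carriers 3 rose and 0 fell at 5 days (median 0.14), and at unadjusted p under 0.05 in limma 0 were lower. Those that rose were Apoc1, Apoc4 and, close to the floor, Apof (0.45 ± 0.12). Of 10 genes that remodel lipoproteins in plasma 3 rose and 1 fell (median 0.07), also without basal 9A1 replicate 1 (median 0.26). Angptl8, a secreted regulator of lipoprotein lipase activity, rose by 1.28 ± 0.17, Pon2 by 1.20 ± 0.27 and Lmf1 by 0.80 ± 0.21, whereas Pltp, the phospholipid transfer protein, fell by 2.09 ± 0.37.

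Of 13 receptors and uptake genes 6 rose and 1 fell (median 0.41), or 6 and 2 without basal 9A1 replicate 1. The fatty acid carrier Cd36 rose by 4.47 ± 0.56 (5.28 without that array), and Cubn (3.23 ± 0.29) and its partner Amn (3.21 ± 0.27), which take up Apoa1, rose together, while Lrp8, an Apoe receptor, fell by 1.66 ± 0.24. Of 7 genes that export cholesterol to lipoproteins 0 rose and 1 fell, with a median of 0.19; at unadjusted p under 0.05 in limma 1 was higher. Npc2, a cholesterol carrier of lysosomes, fell by 0.56 ± 0.09. Abca1, which lipidates Apoa1, differed by 1.87 ± 0.65 (adjusted p = 0.0512), and rose by 2.63 without basal 9A1 replicate 1 (adjusted p = 0.00197).

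Of 25 transcription factors known to act on apolipoprotein genes 13 rose and 3 fell at 5 days, with a median of 0.76, beside 16.9% and 18.5% of all genes. The counts were 16 and 4 without basal 9A1 replicate 1, with a median of 1.01. Hnf4g rose by 4.61 ± 0.58, Ppara, a fatty acid sensor, by 3.13 ± 0.52, and Creb3l3, an activator of Apoa4 and Apoc2, by 2.90 ± 0.57. Without that array these rises were 5.44, 3.83 and 3.66. Hnf4a, a main activator of Apob, Mttp and Apoc3, lay between 10.98 and 11.99 in basal culture and rose by 0.94 ± 0.17 (adjusted p = 0.00278) at 5 days and by 0.82 at 1 day (adjusted p = 0.0149). Foxa1 and Foxa2 fell by 2.10 ± 0.26 and 1.65 ± 0.28.

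Among the marker lists of cell types, the enterocyte list and part of the hepatocyte list rose with the members. The part of other cell types in the results was not tested. Of 16 enterocyte genes tested, 14 rose and 0 fell at 5 days (median 3.30), beside 16.9% and 18.5% of all genes, with 0 lower at unadjusted p under 0.05 in limma. The counts were the same without basal 9A1 replicate 1 and the median was 3.84. Their mean lay between 7.72 and 8.07 on 3 basal arrays, at 10.15 on basal 9A1 replicate 1, between 8.84 and 9.68 at 1 day and between 11.04 and 11.58 at 5 days. Fabp2, a fatty acid binder of enterocytes, rose by 5.75 ± 1.08, and Alpi, the intestinal alkaline phosphatase, by 5.58 ± 1.18. Without that array these rises were 7.30 and 7.25. Cdx1 differed by 0.03 ± 0.11 and Cdx2, the intestinal regulator, rose by 0.84 ± 0.16.

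Of 16 hepatocyte genes 7 rose and 0 fell (median 1.51), with 0 lower at unadjusted p under 0.05 in limma. Their mean lay between 6.04 and 6.48 on 3 basal arrays, at 8.07 on basal 9A1 replicate 1, between 7.03 and 7.56 at 1 day and between 8.11 and 10.09 at 5 days. Without that array 10 rose and 0 fell (median 1.75). Alb rose by 4.99 ± 1.23, or by 6.56 without it. Of 9 yolk sac and visceral endoderm genes 3 rose and 1 fell (median 0.95); the 3 that rose, Amn, Cubn and Ttr, also stand in other lists. Leaving out basal 9A1 replicate 1 gave 6 that rose and 1 that fell (median 1.55). Of 10 bile duct genes 3 rose and 1 fell (median 0.30), or 4 and 2 without that array (median 0.39).

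Of 9 proliferation genes 0 rose and 8 fell at 5 days (median -4.28), with 0 higher at unadjusted p under 0.05 in limma, and the counts were the same without basal 9A1 replicate 1. Their mean was 10.65 on basal 9A1 replicate 1, from 11.44 to 11.67 on the other basal arrays, 8.52 to 9.10 at 1 day and 6.23 to 8.22 at 5 days. Means of the macrophage and blood, endothelial, and stellate and fibroblast lists ranged over less than 1 log2 unit across the 12 arrays, from 6.11 to 6.50, 5.12 to 5.57 and 5.48 to 6.04. In these lists 1 gene rose and 2 fell of 10, 0 of 7 were called and 0 of 8 were called, with medians of 0.06, -0.11 and -0.0046. At unadjusted p under 0.05 in limma the counts in the endothelial and the stellate and fibroblast lists were again 0. The macrophage gene that rose was Csf1r, by 2.55 ± 0.26, and 9 of 12 genes of that list were under 7 on every array.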

How the data were processed

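The deposited table holds log2 probe set levels. The submitters' processing notes name RMA and R, version 2.3.1, as what the authors used. Of its 45101 probe sets, 64 are controls, 34945 list a single gene, 932 list more than 1 and 9160 list none. These gave 18193 genes, each taken from its probe set with the highest mean, and 15781 genes reached a log2 level of 5 on at least 2 arrays.

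Group means were fitted with limma 3.58.1 in R 4.3.3 with a variance trend, and p-values were adjusted over all genes tested; the code was tested on simulated data. The number of arrays limits the precision, and no read depth applies.

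The members and the gene lists were chosen with earlier results of these data known. The text names every member, up to 3 genes with the largest rise and up to 2 with the largest fall of each pathway list, Hnf4a, Apoa5, Apoc1 and Apoc4, and the genes most alike by Pearson's r. The marker genes named, and Abca1, Sar1b, Sik3, Cdx1 and Fabp7, were chosen after their values were seen, as were the motifs.

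Alternatives were a floor of 6 or none, other probe set rules, median centring, quantile normalization, array weights, no variance trend, the replicate number as a block, each line alone, and leaving out 1 or 2 arrays. The replicate numbers were not taken to pair the arrays, since correlations of deviations between groups of the same number ranged from -0.30 to 0.499 and were not all above 0.1.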

Additional observations from a re-analysis of the deposited data

Results flagged for a closer look

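Each member's 4 arrays of a culture were compared for a single array far from the other 3, by a gap over the range above Dixon's critical value of 0.829. Of 27 combinations 7 passed. The nominal rate of this rule, about 1 in 20, holds for independent sets of 4 arrays that are alike. Here the members varied together on the same arrays, and the arrays of a culture came from different lines. The count therefore cannot be set against that rate, and no share of all genes is given beside it. In basal culture the array apart was 9A1 replicate 1 for 4 members. Apoa4 read 14.31 there against 6.15 to 6.64 on the others, and Apoc2 read 13.78 against 6.04 to 6.60. Apoc3 read 12.90 against 5.05 to 5.43, and Mttp read 12.17 against 6.68 to 7.06. At 1 day the array was 9A1 replicate 1, with Apoa1 at 9.19 against 12.34 to 12.48 and Apoc3 at 5.65 against 7.09 to 7.21. At 5 days it was 9A1 replicate 1, with Apoe at 7.81 against 4.74 to 5.04.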

How the results depend on the processing

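Of 2784 recomputed values of single members, 2534 kept their side of the threshold, 85 of them with the other sign, 126 passed it only in the alternative and 116 lost it. The other 8 had the opposite sign, with a call either in the alternative or with all arrays. Over both lines, the 5 day count of 8 members ranged from 6 to 8 with single arrays left out. Across the 21 settings the 5 day call was lost 4 times for Apoa1, 8 times for Apoa2 and 0 times for Apoa4, Apob, Apoc2, Apoc3, Apoh and Mttp. These settings leave out the fit of every probe set on its own. There the second Apoh probe set, 1447719_at, was not called (0.08, limma adjusted p = 0.837).

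With single arrays left out the counts of members called ranged as follows, in either direction and without the share of all genes at each setting. At 1 day they were 0 to 5 over both lines, 0 to 5 in 14B3 and 0 to 4 in 9A1. Without basal 9A1 replicate 2 all calls at 1 day over both lines (3) and in 9A1 (4) were lower. From 1 to 5 days they were 4 to 8 over both lines, 0 to 4 in 14B3 and 0 to 7 in 9A1. At 5 days against basal culture they were 1 to 7 in 14B3 and 0 to 7 in 9A1. Between the lines they were 0 to 6 in basal culture, 0 at 1 day and 0 to 1 at 5 days, and for the responses 0 to 6 at 1 day and 0 to 4 at 5 days.

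Leaving out both basal 9A1 replicate 1 and 1 day 9A1 replicate 2 gave 6 members at 1 day over both lines, 6 in 14B3 and 1 in 9A1. It gave 6 from 1 to 5 days in 14B3, 8 in 9A1, 8 at 5 days against basal culture in 9A1, and, between the lines, 4 at 1 day and 1 at 5 days. Array weights gave 0 at 1 day over both lines and 3 in 14B3, and, from 1 to 5 days, 7 in 14B3 and 0 in 9A1. The arrays of 14B3 alone gave 6 at 1 day, 8 from 1 to 5 days and 8 at 5 days against basal culture. Those of 9A1 alone gave 0 from 1 to 5 days and 0 at 5 days. From 1 to 5 days in 14B3, 1 member was called with the floor at 6, with probe sets averaged or with every probe set on its own.

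Called values of opposite sign were those of Apoa4 at 1 day over both lines, 0.77 without basal 9A1 replicate 1 and 0.71 without both arrays, in a range from -3.16 to 0.77 with single arrays left out. Likewise Apoc3 gave 1.56 and 1.17 (range -2.36 to 1.56), Apoc2 in 9A1 at 1 day 3.32 and 2.48 (range -4.42 to 3.32), and Mttp at 1 day 0.52 without both arrays. The Apoh probe set 1447719_at gave -0.17 in 14B3 at 5 days and was itself not called (adjusted p = 0.776), where the brighter probe set rose. The cause was not tested.

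With the replicate number as a block, 8 members were called at 5 days over both lines, 5 in 14B3 and 2 in 9A1. The correlations gave a mixed picture of such pairing. They were 0.499 between the lines at 1 day, 0.376 between 1 day and 5 day 9A1, and -0.300 between the lines in basal culture. From 1 to 5 days the block gave 5 over both lines and 4 in 9A1, and at 1 day 1 over both lines.

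The SD over genes of the difference between both arrays of a group was 0.896 in basal 9A1, 0.779 in 1 day 9A1 and 0.405 in 5 day 9A1. In 14B3 it was 0.254, 0.300 and 0.196. The replicates of 9A1 thus differed more than those of 14B3 in each culture.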
